A study of Danio rerio with 17 samples.

Results

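The 10 genes described here are markers that are widely used to recognise pericytes: rgs5a, rgs5b, kcne4, kcnj8, abcc9, cspg4, cd248a, cd248b, rasl12 and ndufa4l2a. They were taken by gene symbol from a table of 30220 zebrafish genes, and all 10 were found, each in a single row. The question was which of them followed the sort for acta2 reporter cells, which followed the sort for kdrl reporter cells, and which followed neither. The values came from RNA sequencing of cells sorted by fluorescence from dissociated whole embryos of 3 transgenic lines, in 17 libraries and 6 groups.

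Embryos of Tg(acta2:mcherry);(foxc1b:egfp), here the acta2/foxc1b line, were sampled 4 days post fertilization; 2 libraries held reporter-positive cells, which the labels call mural, and 3 held negative cells, which they call non-mural. The acta2 line, Tg(acta2:egfp), also sampled at 4 days, gave 3 positive (mural) and 3 negative (non-mural) libraries. The kdrl line, Tg(kdrl:mcherry), sampled at 5 days, gave 3 positive (endothelial) and 3 negative (non-endothelial) libraries. Each reporter is driven by the promoter it is named for: acta2 encodes smooth muscle actin, foxc1b a forkhead transcription factor of head mesenchyme, and kdrl a VEGF receptor of endothelium. Which of the 2 colors defined the sort of the acta2/foxc1b line is not in the labels. No group was sorted with a pericyte reporter, so negative cells of every line can hold pericytes. Whether replicates were separate clutches is not labelled, so p-values measure only the spread between these libraries, which may be technical. Cells of the kdrl line were fixed ahead of the sort and sequenced with another library kit, so line, age, fixation and kit cannot be told apart in any comparison with it.

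Pericytes are mural cells that lie in the basement membrane of capillaries and contact the endothelium, whereas vascular smooth muscle cells form contractile layers around larger vessels. Both arise from mesenchyme and neural crest, and both signal with endothelium through PDGF and Notch receptors. No single gene is specific to pericytes, so they are recognised by combinations of genes: regulators of G protein signaling, subunits of a potassium channel that is opened when ATP falls, a proteoglycan and endosialins at the cell surface, and a few intracellular proteins.

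Libraries held 10474235 to 40868765 reads, recovered from the deposited size-factor-normalized counts. The sorts of the acta2 line differed in composition. The gene mt-rnr2 took 9.35 to 16.3% of reads in acta2 positive and 1.23 to 3.86% in acta2 negative libraries. The 10 genes with the most reads took 23.0 to 31.8% and 17.7 to 19.7%. In the acta2/foxc1b line the mt-rnr2 ranges overlapped, at 3.44 to 6.02% in positive and 4.52 to 7.10% in negative libraries. The acta2 gene itself had 37792 to 44412 normalized read counts in acta2/foxc1b positive and 45.7 to 137 in acta2/foxc1b negative libraries, and 16196 to 29672 in acta2 positive against 121 to 147 in acta2 negative libraries. The kdrl gene had 5389 to 19330.1 in kdrl positive and 232 to 305 in kdrl negative libraries. These 2 reporter genes went with their labels. The third, foxc1b, is a reporter in the acta2/foxc1b line alone. There it had 744 to 1977 normalized read counts in positive libraries, all above the 215 to 415 in negative libraries. It was not called there by limma (2.07 on the log2 scale, SE 0.66, adjusted p = 0.300). The authors' deposited adjusted p for it was 0.0285, at 1.57. In the acta2 line, which carries no foxc1b reporter, it had 693 to 2199 in acta2 positive and 1655 to 5294 in acta2 negative libraries. It was not called there either (-1.46, SE 0.52, adjusted p = 0.129 by limma). Replicate 2 of the acta2/foxc1b negative cells stood apart, with a mean Pearson r across genes of 0.836 to the other libraries of its group. Its summed epidermis markers reached 4355120 normalized read counts, against 78928 and 112736 in the other 2 libraries of that group, and it held the lowest value of its group for rgs5a, rgs5b, abcc9, cspg4, cd248a, cd248b, rasl12 and ndufa4l2a. Several results that rest on it are therefore given with and without it.

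All 9 members tested over both acta2 lines had a positive log2 fold change there, and part of them passed the test. In a fit over both acta2 lines (5 positive and 6 negative libraries, line as a term), rgs5a, kcne4, abcc9, cd248a and rasl12 were higher in positive cells at an adjusted p under 0.05 by limma, adjusted by Benjamini-Hochberg over all genes tested. The genes rgs5b, cspg4, cd248b and ndufa4l2a were not called, and kcnj8 had too few reads to be tested. In that comparison 8.77% of all 23438 genes tested were called in either direction, and the median log2 fold change was 2.46 over the 9 members tested and -0.10 over all genes. Without replicate 2 of the acta2/foxc1b negative cells 6 members were called, cspg4 being added, where 15.9% of all genes tested were called.

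Taken line by line, the calls were fewer. Between acta2 positive and negative cells abcc9, cd248a and rasl12 were called higher, 3 of 9 members tested, where 7.00% of all genes tested were called. By contrast, in the acta2/foxc1b line 0 of 9 members tested were called by limma, where 0.0271% of all genes tested, 6 of 22116, were called. At an unadjusted p under 0.05 there were 6 members and 2532 genes in that line, edgeR called 0 genes and 0 members, and DESeq2 called 6 members, where it called 7.89% of all genes tested. The median log2 fold change in that line was 3.52 over the members and -0.11 over all genes. Without its negative replicate 2, rgs5a, abcc9, cspg4 and rasl12 were called there, where 3.57% of all genes tested were called.

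Among kdrl cells, cspg4, cd248a and cd248b were lower in positive cells, 3 of 10 members tested, where 5.96% of all genes tested were called in the fit without the replicate number. Same-numbered kdrl libraries deviated together, weakly for replicate 2. With the replicate number as a block 4 members were called lower, rgs5a being added, where 13.5% of all genes tested were called. No member was called higher by limma with all kdrl libraries. Without kdrl positive replicate 3, rgs5b was called higher by limma (3.07, adjusted p = 0.0277), where 785 genes were called higher and 727 lower in all. At an unadjusted p under 0.05 there were 4 members, and 5830 of all 24903 genes tested. DESeq2 and edgeR, on all kdrl libraries, called none higher. The median log2 fold change was -1.097 over the members and -0.05 over all genes. In these bulk libraries, fewer cells of a type and less RNA per cell cannot be told apart.

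Counted by whether positive and negative libraries overlapped, 6 members lay apart in the acta2/foxc1b line, all higher in positive cells, where 29.6% of all genes tested lay apart. For acta2 cells 6 members lay apart, all higher in positive cells, against 30.8% of all genes tested. For kdrl cells 3 members lay apart, all lower in positive cells, against 29.5% of all genes tested.

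**Figure D1:**
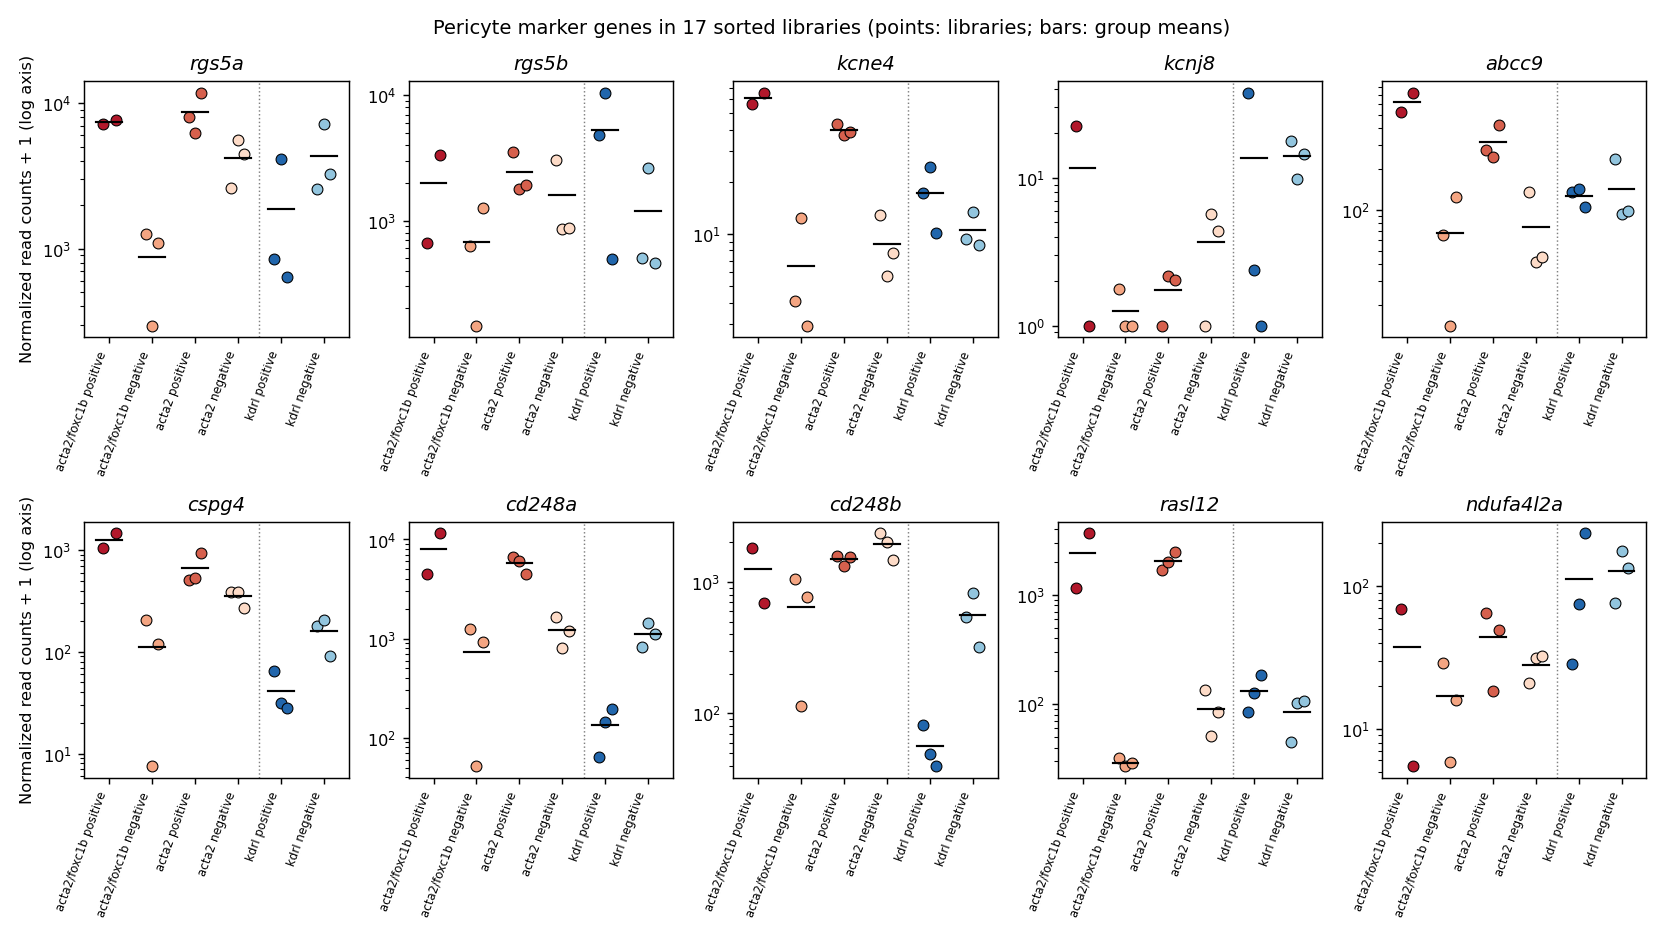
Normalized read counts plus 1 of the 10 pericyte markers (log axis), with a point per library and a bar at the group mean, for each sort of the acta2/foxc1b, acta2 and kdrl lines. For rasl12 the 5 positive libraries of both acta2 lines lie between 1146 and 3654 and their 6 negative libraries between 26.0 and 133. The dotted line separates libraries that the authors scaled apart.

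**Figure D2:**
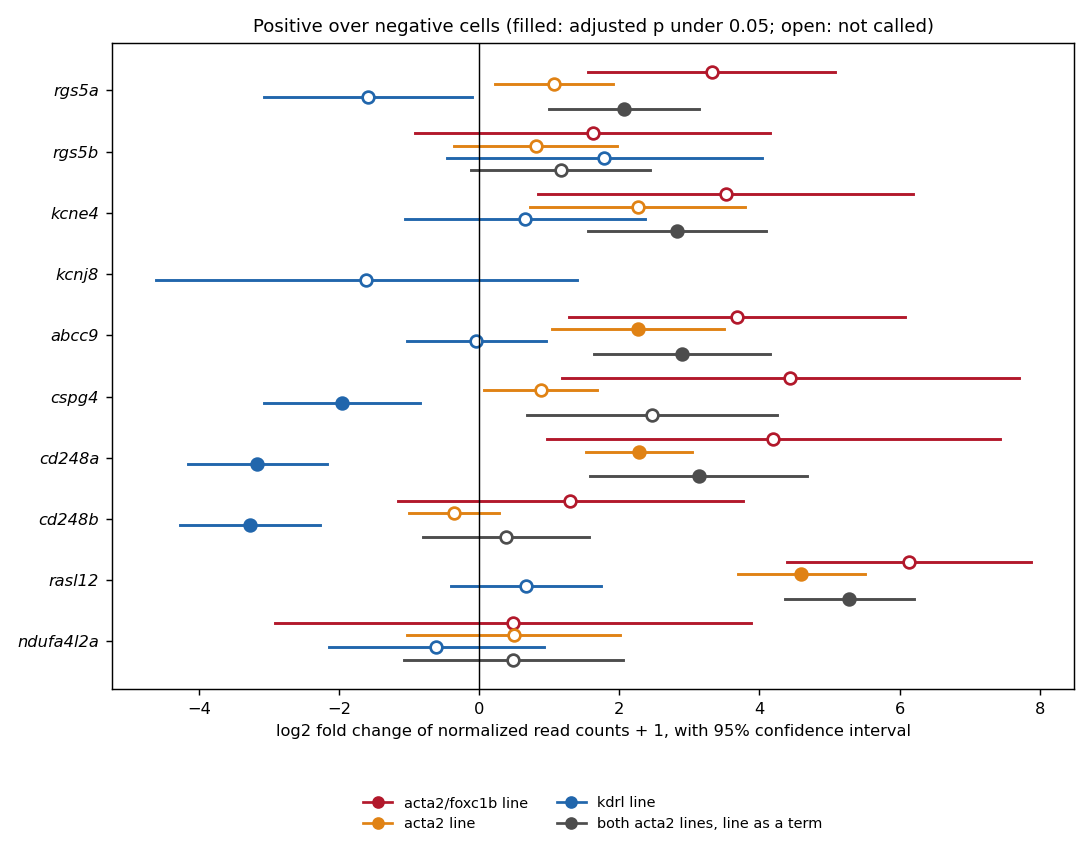
The log2 fold change of normalized read counts plus 1, positive over negative cells, with its 95% confidence interval, for each marker in each line and in both acta2 lines together. Filled points passed an adjusted p of 0.05 and open points did not; of the 3 lines, kcnj8 could be tested in the kdrl line alone. The filled points of both acta2 lines lie right of 0 and those of the kdrl line left of it.

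The regulators of G protein signaling rgs5a and rgs5b are the 2 zebrafish copies of RGS5, a protein that speeds the switching-off of G alpha subunits and so dampens receptors such as those for endothelin and angiotensin. The copy rgs5a had 7139.5 and 7608 normalized read counts in acta2/foxc1b positive cells, against 1249.8, 294 and 1095 in acta2/foxc1b negative cells. It had 8081, 6265 and 11785 in acta2 positive cells, against 2601, 5553 and 4437 in acta2 negative cells. In normalized read counts the positive libraries lay above all negative libraries in each of these lines, by a narrow gap in the acta2 line. In RPM the acta2 line overlapped, with 215 to 476 in acta2 positive and 115 to 231 in acta2 negative libraries. Over both acta2 lines rgs5a was higher in positive cells by 2.07 on the log2 scale (SE 0.50, adjusted p = 0.0213). Neither line alone called it: the log2 fold changes were 3.32 (SE 0.75, adjusted p = 0.158) in the acta2/foxc1b line and 1.07 (SE 0.37, adjusted p = 0.120) in the acta2 line. Without its negative replicate 2, the acta2/foxc1b line gave 2.65 at an adjusted p of 0.0246 by limma. The joint call was lost when acta2/foxc1b positive replicate 1 was left out (adjusted p = 0.0656), and likewise without its replicate 2 (adjusted p = 0.0832).

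Between kdrl positive and negative cells rgs5a lay the other way, without passing the test in the fit that ignores the replicate number. It had 852, 4104 and 634 normalized read counts in kdrl positive cells, against 2557, 7219.6 and 3235 in kdrl negative cells, so the groups overlapped through positive replicate 2. Within every replicate number the positive library was the lower. The log2 fold change was -1.58 (SE 0.67, adjusted p = 0.188), and with the replicate number as a block it was -1.58 at an adjusted p of 0.0201 by limma, a call of lower in positive cells. Without kdrl positive replicate 2 it was -2.41 at an adjusted p of 0.0294.

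The copy rgs5b was not called in any line. It had 667 and 3319 normalized read counts in acta2/foxc1b positive cells, against 624, 145 and 1250.0 in acta2/foxc1b negative cells. It had 3547, 1789.6 and 1928 in acta2 positive cells, against 3056, 856 and 873 in acta2 negative cells. Its widest spread was in the kdrl line, with 4789.6, 10451 and 495 in positive cells and 504, 2613 and 456 in negative cells. The groups overlapped in each line. On the log2 scale the difference was 1.62 (SE 1.08) in the acta2/foxc1b line, 0.81 (SE 0.52) in the acta2 line and 1.79 (SE 1.01, adjusted p = 0.311) in the kdrl line. Without kdrl positive replicate 3, the library with 495, the kdrl value was 3.07 at an adjusted p of 0.0277. In RPM, the reads scaled to the library total, rgs5b averaged highest in kdrl positive cells, at 234, with libraries between 18.8 and 445. Its range there thus overlapped that of acta2 positive cells, from 75.8 to 94.5.

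The potassium channel genes split in level and in behavior. In vascular smooth muscle and pericytes of mammals, kcnj8 encodes the pore (Kir6.1) and abcc9 the regulatory subunit (SUR2) of a channel that closes when ATP is plentiful, and kcne4 encodes a small accessory subunit of voltage-gated potassium channels. The gene abcc9 had 526 and 730.3 normalized read counts in acta2/foxc1b positive cells, against 64.2, 13.0 and 123 in acta2/foxc1b negative cells. It had 275, 245 and 419.6 in acta2 positive cells, against 136, 40.4 and 43.9 in acta2 negative cells. In both lines the positive libraries lay above the negative ones. Over both lines abcc9 was higher in positive cells by 2.90 on the log2 scale (SE 0.58, adjusted p = 0.0085), a call that held without each of the 11 libraries in turn, at adjusted p up to 0.0391.

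The acta2 line alone called abcc9 at 2.27 on the log2 scale (SE 0.54, adjusted p = 0.0403). That call was lost without positive replicate 1 (adjusted p = 0.067), positive replicate 2 (0.0597), positive replicate 3 (0.129), negative replicate 2 (0.143) or negative replicate 3 (0.13), with edgeR (0.0636) and in a fit of all 11 libraries of both acta2 lines (0.181). In these fits the log2 fold change lay between 1.97 and 2.43. The acta2/foxc1b line alone gave 3.68 (SE 1.02, adjusted p = 0.235), and 2.79 at an adjusted p of 0.0495 by limma without its negative replicate 2. Sorted kdrl cells had no such gap: abcc9 had 134, 141 and 104 in positive cells, against 238, 91.8 and 97.6 in negative cells, which overlapped. The log2 fold change there was -0.04 with a 95% confidence interval of -1.03 to 0.95.

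SUR2 is also a channel subunit of heart and skeletal muscle. Markers of cardiac muscle were higher with abcc9 in the acta2 line and over both lines, whereas those of skeletal muscle were not higher in the acta2 line. The 14 cardiac muscle genes in the table summed to 9238 to 38838 normalized read counts in acta2/foxc1b positive libraries, against 569 to 2109 in acta2/foxc1b negative libraries. They summed to 12318 to 26320 in acta2 positive libraries, against 3103 to 5746 in acta2 negative libraries. Of these 14, 8 were called higher and 0 lower over both lines, and 5 higher and 0 lower in the acta2 line. The 28 skeletal muscle genes summed to 313987 to 530378 in acta2/foxc1b positive libraries, against 22732 to 60592 in acta2/foxc1b negative libraries. They summed to 31619 to 52331 in acta2 positive libraries, against 40223 to 67608 in acta2 negative libraries. Of the 28, 5 were called higher and 2 lower over both lines, and 0 higher and 3 lower in the acta2 line. Beside both lists, 8.77% of all genes tested were called over both lines and 7.00% in the acta2 line. None of the cardiac or skeletal muscle genes was at 0 in a positive library of these lines, and the part of these cells in the abcc9 values was not tested.

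The gene kcne4 was rare but regular. It had 55.2 and 64.5 normalized read counts in acta2/foxc1b positive cells, against 3.10, 11.4 and 1.94 in acta2/foxc1b negative cells. It had 42.2, 36.0 and 37.8 in acta2 positive cells, against 11.8, 4.66 and 6.75 in acta2 negative cells. The positive libraries lay well above the negative ones in each line. Over both lines kcne4 was higher in positive cells by 2.82 on the log2 scale (SE 0.59, adjusted p = 0.0106), and the call held without each of the 11 libraries, at adjusted p up to 0.039. Alone, the acta2/foxc1b line gave 3.52 (SE 1.13, adjusted p = 0.302) and the acta2 line 2.26 (SE 0.68, adjusted p = 0.0825). It had 16.1, 23.2 and 9.08 in kdrl positive cells, against 8.38, 12.4 and 7.64 in kdrl negative cells, and the log2 fold change was 0.65 (SE 0.77, adjusted p = 0.632). In RPM its 6 groups ran in order from acta2/foxc1b positive (mean 2.53) and acta2 positive (1.39), whose ranges overlapped neither each other nor the next group, to kdrl positive (0.714), kdrl negative (0.609), acta2 negative (0.340) and acta2/foxc1b negative (0.172), whose neighbors overlapped.

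The pore gene kcnj8 was close to the limit of detection. It had 24 and 0 reads in acta2/foxc1b positive cells, against 1, 0 and 0 in acta2/foxc1b negative cells. There were 0, 1 and 1 reads in acta2 positive cells, against 0, 6 and 4 in acta2 negative cells. There were 75, 2 and 0 reads in kdrl positive cells, against 22, 5 and 16 in kdrl negative cells. A single library thus held nearly all reads of the acta2/foxc1b positive and of the kdrl positive group, and no difference was detectable at this depth. Of the 3 lines it could be tested in the kdrl line alone, where its value was -1.61 on the log2 scale (SE 1.35, adjusted p = 0.491).

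At the cell surface, cspg4 encodes NG2, a chondroitin sulfate proteoglycan of pericytes, oligodendrocyte precursors and other mesenchymal cells. It had 1047 and 1456 normalized read counts in acta2/foxc1b positive cells, against 205, 6.51 and 118 in acta2/foxc1b negative cells. It had 507, 536 and 933 in acta2 positive cells, against 390.4, 386 and 270.2 in acta2 negative cells. In normalized read counts the groups lay apart in each line, widely in the first and narrowly in the second. In RPM the second line overlapped, with 13.5 to 37.7 in acta2 positive and 12.2 to 17.2 in acta2 negative libraries. The log2 difference was 4.44 (SE 1.38, adjusted p = 0.290) in the acta2/foxc1b line, 0.88 (SE 0.36, adjusted p = 0.173) in the acta2 line and 2.46 (SE 0.83, adjusted p = 0.0842) over both. Without acta2/foxc1b negative replicate 2, the library with 6.51, the value over both lines was 1.72 at an adjusted p of 0.0117, and that of the acta2/foxc1b line was 2.98 at an adjusted p of 0.0329.

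The gene cspg4 was lower in kdrl positive cells. It had 63.6, 30.7 and 27.3 normalized read counts there, against 179.8, 205 and 90.8 in kdrl negative cells. The change was -1.96 on the log2 scale (SE 0.50, adjusted p = 0.047). It lay close to the threshold: the adjusted p was 0.0939 without positive replicate 2, 0.081 without positive replicate 3, 0.195 without negative replicate 1, 0.173 without negative replicate 2, 0.0532 with edgeR and 0.0709 with no filter on low values, with log2 fold changes of -1.97 to -1.73.

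The genes cd248a and cd248b are the zebrafish copies of CD248, or endosialin, a C-type lectin-like membrane protein of pericytes and fibroblasts. The copy cd248a had 4433 and 11521 normalized read counts in acta2/foxc1b positive cells, against 1236, 50.4 and 929.7 in acta2/foxc1b negative cells. It had 6630.3, 6131 and 4504 in acta2 positive cells, against 1656, 804 and 1192 in acta2 negative cells. Positive libraries lay above negative ones in each line. Between acta2 sorts cd248a was higher in positive cells by 2.28 on the log2 scale (SE 0.33, adjusted p = 0.0078), a call that held without each of the 6 libraries, at adjusted p up to 0.037. That call was lost in a fit of all 11 libraries of both acta2 lines (2.28, adjusted p = 0.279 by limma). Over both lines the value was 3.13 (SE 0.72, adjusted p = 0.0173), and it was 2.69 at an adjusted p of 0.0747 without acta2/foxc1b positive replicate 2. Alone, the acta2/foxc1b line gave 4.20 (SE 1.37, adjusted p = 0.309), and 2.74 without its negative replicate 2, which was not called either.

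The copy cd248b was called in neither acta2 line. It had 1805 and 689 normalized read counts in acta2/foxc1b positive cells, against 1057, 112 and 773 in acta2/foxc1b negative cells. It had 1586, 1328 and 1557 in acta2 positive cells, against 2341, 2000.0 and 1471 in acta2 negative cells. The groups overlapped in both lines. The log2 fold change was 1.3 (95% confidence interval -1.16 to 3.76) in the acta2/foxc1b line and -0.36 (-1.0 to 0.29) in the acta2 line.

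Both endosialin copies were lower in kdrl positive cells. The copy cd248a had 63.6, 143 and 195 normalized read counts in kdrl positive cells, against 819, 1439 and 1114 in kdrl negative cells. The copy cd248b had 80.2, 48.5 and 38.6 in kdrl positive cells, against 542, 826 and 321 in kdrl negative cells. The groups lay far apart for both genes. The log2 fold changes were -3.17 (SE 0.45, adjusted p = 0.0038) for cd248a and -3.28 (SE 0.45, adjusted p = 0.0035) for cd248b, and both calls held without each of the 6 libraries, at adjusted p up to 0.0222.

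Fibroblast and mesenchyme markers moved with cd248a in the acta2 line and with both copies in the kdrl line. The 25 genes of that list summed to 1299480 to 1615230 normalized read counts in acta2 positive libraries, against 595141 to 655039 in acta2 negative libraries, and 5 were called higher and 0 lower. They summed to 355267 to 1175620 in acta2/foxc1b positive libraries, against 226867 to 313404 in acta2/foxc1b negative libraries, with 0 called. They summed to 41842 to 151928 in kdrl positive libraries, against 113754 to 226851 in kdrl negative libraries, with 1 called higher and 13 lower. Of all genes tested, 7.00% were called in the acta2 line, 0.0271% in the acta2/foxc1b line and 5.96% in the kdrl line. The median log2 fold change of the list was 0.91 in the acta2 line and -2.30 in the kdrl line. The part of these cells in the endosialin values was not tested.

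**Figure D3:**
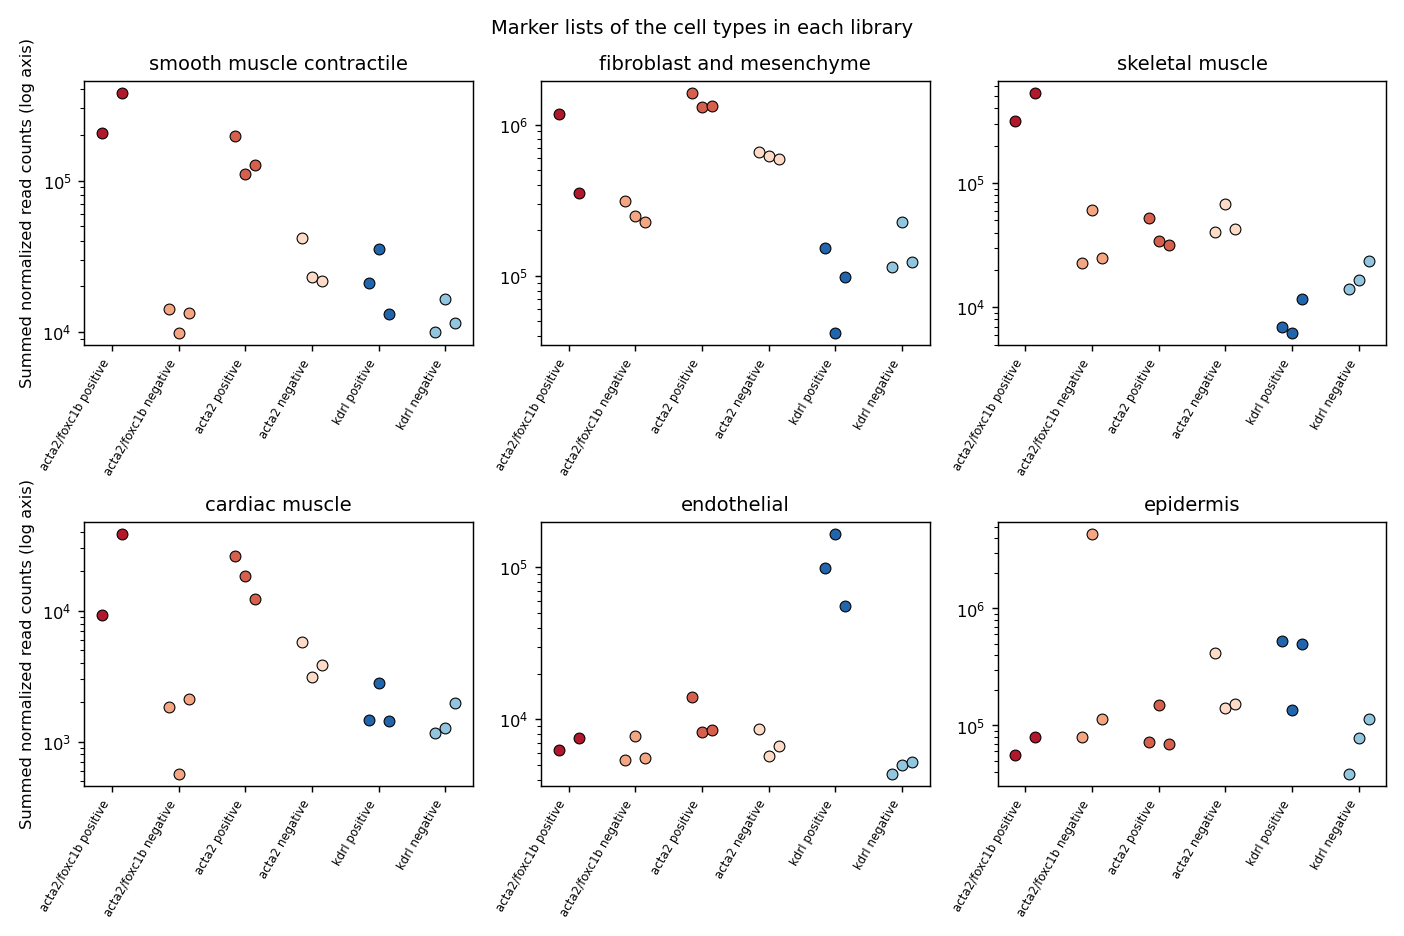
Summed normalized read counts (log axis) of 6 lists of marker genes, with a point per library, in the positive and negative cells of each line. Smooth muscle contractile genes are higher in positive than in negative libraries of both acta2 lines and endothelial genes are higher in kdrl positive libraries; replicate 2 of the acta2/foxc1b negative cells reaches 4355120 in the epidermis panel.

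The gene rasl12 encodes a small GTPase of the Ras-like family that marks mural cells in mammals, and it was the member with the largest acta2 sort effect. It had 1146 and 3654 normalized read counts in acta2/foxc1b positive cells, against 31.0, 26.0 and 27.8 in acta2/foxc1b negative cells. It had 1697, 2013 and 2453 in acta2 positive cells, against 133, 50.5 and 84.4 in acta2 negative cells. Every positive library lay far above every negative one. Its sort effect on the log2 scale was 4.60 (SE 0.40, adjusted p = 0.0018) in the acta2 line and 5.28 (SE 0.43, adjusted p = 4.23e-05) over both lines. It was 6.13 (SE 0.74, adjusted p = 0.0663) in the acta2/foxc1b line, and 6.08 at an adjusted p of 0.0157 without negative replicate 2. The calls of the acta2 line and of both lines together held without each library in turn. In the acta2/foxc1b line rasl12 was not called without negative replicate 1 or without negative replicate 3.

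Among kdrl cells rasl12 had 84.6, 126 and 184 normalized read counts in kdrl positive cells, against 44.2, 100.6 and 107 in kdrl negative cells. These groups overlapped, and the log2 fold change was 0.67 with a 95% confidence interval of -0.40 to 1.74. In RPM its acta2/foxc1b positive (mean 96.1) and acta2 positive (76.5) libraries overlapped each other, and the ranges of both lay above those of the other 4 groups, whose means ran from 5.52 in kdrl positive to 1.36 in acta2/foxc1b negative cells.

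The gene ndufa4l2a encodes a relative of a mitochondrial respiratory chain subunit that is known in mammals as a hypoxia-induced gene and as a pericyte marker of the brain. It was called in no line. It had 68.6 and 4.45 normalized read counts in acta2/foxc1b positive cells, against 27.9, 4.88 and 14.9 in acta2/foxc1b negative cells. It had 64.1, 17.4 and 48.3 in acta2 positive cells, against 20.0, 30.3 and 31.2 in acta2 negative cells. It had 27.4, 74.4 and 234 in kdrl positive cells, against 75.4, 175 and 132 in kdrl negative cells. The groups overlapped in every line, and the log2 fold changes of 0.48, 0.49 and -0.61 had 95% confidence intervals of -2.91 to 3.88, -1.03 to 2.01 and -2.15 to 0.93. A 4-fold change, or 2 on the log2 scale, thus lay within the interval of each line.

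The sort effects of the lines were then set against each other, as the effect in an acta2 line minus the effect in the kdrl line. The gene kcnj8 passed the filter here through its kdrl libraries. It had too few reads in the acta2 lines for a difference to be judged. For the acta2 line minus the kdrl line, 4 of 10 members differed, where 6.11% of all genes tested were called: cd248a by 5.45 on the log2 scale (SE 0.58, adjusted p = 0.000156), rasl12 by 3.93 (SE 0.66, adjusted p = 0.0026), cd248b by 2.92 (SE 0.54, adjusted p = 0.0051) and cspg4 by 2.84 (SE 0.64, adjusted p = 0.0156). The cspg4 difference had an adjusted p of 0.0505 without kdrl negative replicate 2. For cd248b the difference came with a log2 fold change of -0.36 in the acta2 line, which did not pass, and -3.28 in the kdrl line. For rasl12 it came with 4.60 in the acta2 line and 0.67, which did not pass, in the kdrl line. The differences of rgs5a, 2.66 (SE 0.84, adjusted p = 0.0752), and abcc9, 2.31 (SE 0.74, adjusted p = 0.0811), were not called, although rgs5a was called without kdrl positive replicate 2 (3.48, adjusted p = 0.00695) and abcc9 without acta2 negative replicate 1 (2.86, adjusted p = 0.0256). With the replicate number as a block among the kdrl libraries, chosen after seeing the data, rgs5a was called too (adjusted p = 0.0112), which made 5 members, where 7.27% of all genes tested were called.

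For the acta2/foxc1b line minus the kdrl line, 4 of 10 members differed, where 2.51% of all genes tested were called: cd248a by 7.36 (SE 1.46, adjusted p = 0.0213), cspg4 by 6.40 (SE 1.49, adjusted p = 0.0441), rasl12 by 5.46 (SE 0.87, adjusted p = 0.0076) and rgs5a by 4.90 (SE 1.1, adjusted p = 0.0373). These calls lay near the threshold. When each of the 11 libraries was left out in turn, 0 to 6 members were called, rasl12 in 10 of 11 fits, cd248a in 6, rgs5a in 4 and cspg4 in 3, while the differences ran from 4.62 to 6.30 for rasl12, from 5.90 to 8.20 for cd248a, from 4.24 to 5.73 for rgs5a and from 4.94 to 7.33 for cspg4. None was called without acta2/foxc1b positive replicate 2, where rasl12 had 4.62 at an adjusted p of 0.0584. Without acta2/foxc1b negative replicate 2 the called members were rgs5a, abcc9, cspg4, cd248a, cd248b and rasl12, where 5.46% of all genes tested were called. With the replicate number as a block among the kdrl libraries, chosen after seeing the data, rgs5a and rasl12 were called, where 1.29% of all genes tested were called; cd248a had an adjusted p of 0.0657 and cspg4 of 0.107. This comparison and the previous one share the kdrl libraries.

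**Figure D4:**
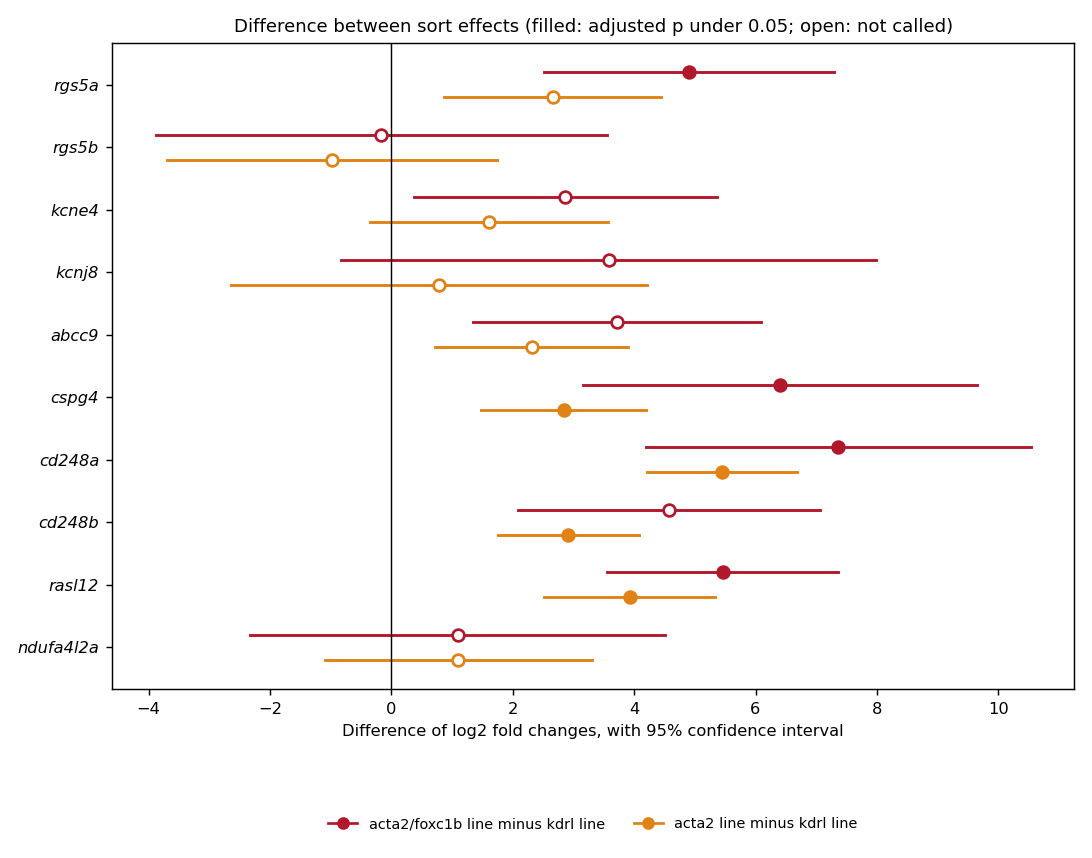
Difference between sort effects on the log2 scale, an acta2 line minus the kdrl line, with its 95% confidence interval, for each of the 10 markers. Filled points passed an adjusted p of 0.05 and open points did not. The points of cd248a, at 7.36 and 5.45, are the farthest from 0, and rgs5b and ndufa4l2a have intervals that hold 0 in both comparisons. So does kcnj8, which had too few reads to be tested in either acta2 line and passed the filter here through kdrl libraries.

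The sort effects of the 2 acta2 lines were not told apart. Of 9 members tested, 0 differed at an adjusted p under 0.05 by limma between the acta2/foxc1b line and the acta2 line, where 0% of all genes tested were called. Members called were 0 by edgeR, with 0 genes in all, and 0 by DESeq2, with 138 genes higher and 96 lower in all. At an unadjusted p under 0.05 there were 1169 genes and 2 members, cspg4 with a difference of 3.57 (SE 1.40, adjusted p = 0.962) and rgs5a with 2.24 (SE 0.82, adjusted p = 0.923). The 95% confidence intervals of these differences ran from 0.52 to 6.61 and from 0.47 to 4.02. Without acta2/foxc1b negative replicate 2 the differences were 2.11 for cspg4 and 1.58 for rgs5a.

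The authors' deposited table gives its own adjusted p-values for the same 3 comparisons. In the acta2/foxc1b line that table called 6 members, rgs5a, kcne4, abcc9, cspg4, cd248a and rasl12, all higher in positive cells, where it called 11.5% of all genes with an adjusted p. In the acta2 line it called kcne4 (adjusted p = 0.0287) and rasl12 (adjusted p = 1.65e-12), 2 of 9 members, where it called 5.65% of all genes. In the kdrl line the authors' deposited table called cspg4, cd248a and cd248b, 3 of 8 members, all lower in positive cells, where it called 13.3% of all genes. Among the members of the acta2 line, abcc9 and cd248a had deposited adjusted p-values of 0.0704 and 0.0888 in the authors' deposited table.

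The duplicated pairs were compared within libraries, as the share of the reads of both copies that one copy took, a measure that the scaling of a library does not touch. The pairs were chosen after their values had been seen. The copy cd248a took 71.1 and 94.4% of the cd248 reads in acta2/foxc1b positive libraries, against 53.9, 31.0 and 54.6% in acta2/foxc1b negative libraries. It took 80.7, 82.2 and 74.3% in acta2 positive libraries, against 41.4, 28.7 and 44.8% in acta2 negative libraries. The positive libraries lay above the negative ones in both lines.

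Over both lines the cd248a share averaged 80.5% ± 8.97 (SD, n = 5) in positive and 42.4% ± 11.01 (SD, n = 6) in negative libraries. The log2 ratio of cd248a to cd248b was higher in positive cells by 2.77, with p = 0.005 in a two-sided exact permutation test within lines, the smallest p it can give, and 0.04 after Benjamini-Hochberg adjustment over the 8 ratio tests made. The kdrl share averaged 67.5% ± 20.6 (SD, n = 3) in positive and 67.1% ± 9.26 (SD, n = 3) in negative libraries, where both copies were lower in positive cells, and the ratio differed by 0.11 (exact permutation p = 1).

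The rgs5a share of the rgs5 pair lay apart between the sorts of the kdrl line. The copy rgs5a took 15.1, 28.2 and 56.1% of the rgs5 reads in kdrl positive libraries, against 83.5, 73.4 and 87.7% in kdrl negative libraries, without overlap. The log2 ratio of rgs5a to rgs5b was -3.37 in positive relative to negative cells, with p = 0.1 in a two-sided exact permutation test, the smallest p that 3 against 3 libraries allow (0.16 adjusted over the 8 tests). Over both acta2 lines the rgs5a share averaged 78.9% ± 9.78 (SD, n = 5) in positive and 66.1% ± 17.4 (SD, n = 6) in negative libraries, and the ratio differed by 0.98 (exact permutation p = 0.225, adjusted 0.3). Whether the authors' counting splits reads that match both copies of a pair is not given in the sources used here, so shares between near copies are uncertain to that extent.

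**Figure D5:**
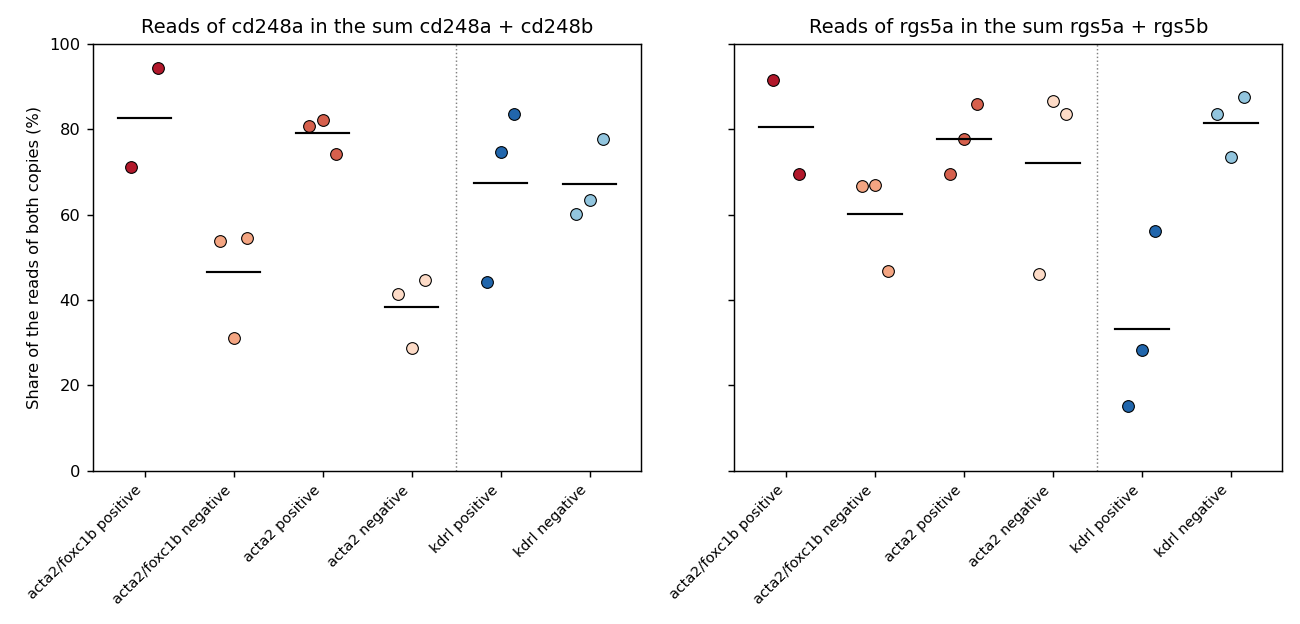
Share, in percent, of the reads of both copies taken by cd248a (left) and by rgs5a (right), with a point per library and a bar at the group mean. The cd248a share is above 71% in all 5 positive libraries of the acta2 lines and below 55% in their 6 negative libraries; the rgs5a share is at most 56.1% in kdrl positive and at least 73.4% in kdrl negative libraries.

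Other genes of mural cells were followed in a list of 42 symbols, of which 38 were in the table. Over both acta2 lines the median log2 fold change of the list was 0.78. There 13 of 38 tested were called higher and 0 lower, where 8.77% of all genes tested were called. The listed genes with the smallest adjusted p were desmb, a desmin, at 5.48 (SE 0.51, adjusted p = 0.000135), trpc6a, a cation channel, at 4.99 (SE 0.65, adjusted p = 0.000777), and s1pr3a, a receptor for sphingosine-1-phosphate, at 3.26 (SE 0.43, adjusted p = 0.00082). Desmin and trpc6a are shared by smooth muscle, and desmb is also in the list of smooth muscle contractile genes. The PDGF receptor gene pdgfrb, singled out because it is the standard marker of pericytes, was at 2.96 (SE 0.75, adjusted p = 0.0285) over both lines and at -1.09 (SE 0.41, adjusted p = 0.149) in the kdrl line. In the acta2 line 9 of 37 were higher and 0 lower, and in the acta2/foxc1b line 0 of 35 were called. The shares of all genes tested that were called in these lines were 7.00% and 0.0271%.

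In the kdrl line the median of that list was -0.96. There 5 of its 38 genes were called higher and 3 lower, where 5.96% of all genes tested were called. The lower ones included lamc3, a laminin chain, at -2.79 (SE 0.39, adjusted p = 0.0037). Higher in kdrl positive cells were mcamb, a cell adhesion molecule also known in endothelium, at 3.02 (SE 0.45, adjusted p = 0.0049), and ednraa, an endothelin receptor gene, at 2.41 (SE 0.46, adjusted p = 0.0161). Both mcamb and ednraa were also called higher in acta2 positive cells of the joint fit, at 2.72 and 2.67.

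For reference, the 21 smooth muscle contractile genes tested in that joint fit had a median log2 fold change of 3.83, with 17 called higher and 0 lower, above the members' median of 2.46. Of 24 endothelial genes tested there, 1 was called higher and 1 lower, where 8.77% of all genes tested were called. In the kdrl line 22 of 25 endothelial genes were called higher and 0 lower, where 5.96% of all genes tested were called. Of 22 smooth muscle contractile genes tested there, 2 were called higher and 2 lower, with a median of -0.17. Their sums were 13260 to 35551 normalized read counts in kdrl positive and 10069 to 16447 in kdrl negative libraries. The acta2 gene itself was at 0.03 (SE 0.70, adjusted p = 0.984 by limma) in the kdrl line. The first list holds the reporter gene acta2 and the endothelial list holds kdrl.

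Relatives of the members were followed in the same fits. Of 12 partners of the channel subunits tested over both acta2 lines, 0 were called by limma in either direction, and the median was 0.08. At an unadjusted p under 0.05 there were 2 partners, and 5608 of all 23438 genes tested. The 2 partners were kcnj11, another pore gene of ATP-sensitive channels, at 1.26 (SE 0.51, adjusted p = 0.147), and kcna3a, a voltage-gated channel gene, at -2.08 (SE 0.90, adjusted p = 0.178). The 22 other regulators of G protein signaling had a median of -0.66 over both acta2 lines. Of these, 2 were called higher and 3 lower, where 8.77% of all genes tested were called. The called regulators included rgs3a at 1.08 (SE 0.28, adjusted p = 0.0282), rgs13 at -5.09 (SE 0.80, adjusted p = 0.0022) and rgs14b at -2.55 (SE 0.54, adjusted p = 0.0118). Among kdrl cells 4 of 22 were higher and 4 lower, with rgs18, known in platelets and leukocytes, at 3.18 (SE 0.42, adjusted p = 0.003). The share of all genes tested that was called in the kdrl line was 5.96%. Leukocyte markers were higher there too, with sums of 22980.2 to 57725 normalized read counts in kdrl positive and 1909 to 5804 in kdrl negative libraries.

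Of 10 relatives of the endosialins, rasl12 and ndufa4l2a, 0 were called by limma over both acta2 lines. At an unadjusted p under 0.05 there were 2 of these relatives, and 5608 of all 23438 genes tested. In the kdrl line 1 of 10 was called, where 5.96% of all genes tested were called. The gene clec14a, which encodes an endothelial protein of the endosialin family, was higher by 6.11 (SE 0.55, adjusted p = 0.000502), while cd248a and cd248b were lower there.

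For each member tested, the 3 genes with the closest profile over the 11 libraries of both acta2 lines were found among 15880 genes. Closeness was measured by Pearson r of the log2 values. These r values describe likeness over libraries that share their sorts and scaling. The 11 libraries include acta2/foxc1b negative replicate 2, which stood apart, and r was not computed without it. The nearest to rasl12 were lmod1b, a smooth muscle leiomodin (r = 0.983), bace2 (0.982) and fbln5, a fibulin of elastic fibers (0.982). Nearest to abcc9 were mylka, a myosin light chain kinase (0.9715) and nfat5b (0.971). To cspg4 they were sema4c (0.990), nfatc1 (0.989) and col6a3, a collagen VI chain (0.986), and to cd248a plekhg2 (0.994), hmcn1 (0.991) and gpc6a (0.989). The nearest to rgs5a were rin3 (0.985), fgl2b (0.984) and elna, an elastin (0.983). To kcne4 they were fam20a (0.971), zyx, a focal adhesion protein (0.965), and samd4a (0.963).

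The remaining members tested had other neighbors. For rgs5b these were b3glcta (0.9747), calhm2 (0.968) and itga10 (0.964), for cd248b fam161b (0.974), pbx1a (0.969) and fstb, a follistatin (0.967), and for ndufa4l2a tnfsf10l3 (0.923), rerglb (0.921) and efna5b (0.918). No gene was among the 3 nearest of more than 1 member, but lists this short cannot show whether the members' profiles differ.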

How the data were processed

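The deposited table gives, per gene and library, a signal value, which is the read count over a size factor of its library as the authors computed it with DESeq2 1.20.0 on featureCounts 1.5.2 counts to GRCz11 per the submitters' processing notes. Aligner, annotation and strand setting: not given in the sources used here. All values (100%) came out as whole reads within a tolerance of 0.1 read. The acta2 and acta2/foxc1b libraries were scaled together and the kdrl libraries apart. The authors also deposited log2 fold changes and p-values; whether those fold changes are shrunken is not stated. Per the labels, cDNA of the acta2 lines was amplified with REPLI-g, and kdrl libraries were made with TotalScript from fixed cells. Reads without molecular identifiers are not independent molecules.

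A gene was tested if its value reached 10 or more in a number of libraries equal to the smaller group; the test was limma 3.58.1 (trend, two-sided) on log2(value + 1), which understates changes of low genes, with Benjamini-Hochberg adjustment over all genes tested. Alternatives were edgeR 4.0.16 and DESeq2 1.42.0 on the recovered reads (R 4.3.3), a pseudocount of 5, no filter, a joint fit of 11 libraries, each library left out, and the replicate number as a block; the block among kdrl libraries in the differences between lines was added after seeing the data. The limma and edgeR fits were also run on simulated counts with a single fixed dispersion for all genes and no outlying library. DESeq2, the block and the ratio tests were not run on them, and the outcome is not reported here. Same-numbered kdrl libraries deviated together from their group means (Pearson r across genes of 0.475, 0.128 and 0.422), weakly for replicate 2. Their pairing is inferred from the replicate number and these values alone. Same-numbered libraries of the acta2 lines did not all deviate together. Members and gene lists were chosen with earlier results of these data known. Named genes are all members, up to 3 called genes (or 2 with the smallest p) per list, the reporter genes and the 3 nearest profiles per member (1 of those of abcc9 is not reported here); mcamb and ednraa in the joint fit and pdgfrb lie outside that rule.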

Additional observations from a re-analysis of the deposited data

Results flagged for a closer look

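The sort effect of 4 members differed between an acta2 line and the kdrl line by a test of the difference itself, in each of the 2 comparisons. In the acta2/foxc1b line minus the kdrl line, the log2 difference was 4.90 for rgs5a, 6.40 for cspg4, 7.36 for cd248a and 5.46 for rasl12. In the acta2 line minus the kdrl line it was 2.84 for cspg4, 5.45 for cd248a, 2.92 for cd248b and 3.93 for rasl12. Line, age, fixation and kit cannot be told apart in these differences.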

How the results depend on the processing

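The count of members called in the acta2/foxc1b line was 0 by limma, 6 with DESeq2 and 3 with the replicate number as a block. It was 6 in a fit of all 11 libraries of both acta2 lines, and 0 to 4 with each negative library left out. The block in that line, and in the fit over both lines, kept only replicate numbers present in both sorts. It thus also left out acta2/foxc1b negative replicate 3, so its changes are not those of the block alone. In the acta2 line the count of 3 became 1, rasl12, in the fit of 11 libraries, and the replicate block took abcc9 there to an adjusted p of 0.0636 by limma. Over both acta2 lines the count of 5 became 3 with the replicate block (kcne4, abcc9 and rasl12) and 3 to 6 with each library left out. For the difference between the acta2/foxc1b and kdrl lines the count of 4 became 0 to 6 with each library left out and 2 with the replicate block in the kdrl line. In the acta2 lines same-numbered libraries correlated at 0.00968, -0.0225, -0.0137, 0.144 and 0.0559, so the block there shares only a number; in the kdrl line's own comparison it added rgs5a and changed no other member's call. Of the values of single members under an alternative, 847 kept their side of the threshold, 34 passed it newly and 45 no longer passed it. All 34 ratios of gene copies kept their side of it too, but most could not have changed it. In the kdrl line the exact permutation test cannot give a p under 0.1. The cd248 shares of positive and negative libraries lay apart in both acta2 lines, and leaving out a library cannot undo that. No called member changed sign, but some values that were not called changed direction when a library was left out. For ndufa4l2a in the acta2/foxc1b line the log2 fold change then ran from -1.35 to 2.32. The log2 ratio of cd248a to cd248b in the kdrl line then ran from -0.46 to 0.86. The number of all genes called moved too. In the acta2/foxc1b line it was 6 higher and 0 lower by limma, and 643 and 1049 with DESeq2. It was 124 and 183 with the block and 571 and 400 in the fit of 11 libraries. With a library left out it reached 335 and 439. In the acta2 line 670 and 771 became 119 and 155 in the fit of 11 libraries. Over both lines 1022 and 1034 became 512 and 560 with the block. For the difference between the acta2/foxc1b and kdrl lines 370 and 291 became 190 and 149 with the block. Reads of kcnj8 and kcne4 were few, which makes their values less certain, although kcne4 was called over both acta2 lines.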
